A study of Homo sapiens with 8 samples.

Results

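Vesicle traffic genes were examined for RNA captured by an antibody to N4-acetylcytidine (ac4C), an acetylated cytidine, in NAT10-knockout SiHa cells and in SiHa cells. SiHa is a line of cervical carcinoma cells, and NAT10 is the enzyme that acetylates cytidine in RNA. The members were all protein-coding genes whose symbol is RAB with a number and an optional letter, ARF1, ARF3, ARF4, ARF5 or ARF6, or begins with VPS, with SEC and a number from SEC22 to SEC63, or with COPA, COPB, COPG or COPZ. RefSeq lists 128 such genes. Peaks could be assigned to 63 of them, out of 6833 named protein-coding genes with a peak. These 63 genes held 33 of 4557 knockout peaks and 81 of 12924 SiHa peaks.

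The study has 8 libraries in 4 groups of 2 biological replicates, namely immunoprecipitated and input RNA of KONAT10SiHa cells and immunoprecipitated and input RNA of SiHa cells. No agent, dose or time is given in the labels, and whether the knockout is 1 clone is not stated. The values used here are 1 peak list for each population, without replicate values, read counts or depth, so the spread between replicates cannot be seen and the effect of the knockout could not be tested. The list whose name adds a K to SiHa was read as that of the knockout cells, which no label states in words. A peak list shows where antibody enrichment was called, and neither the amount of RNA nor the amount of ac4C.

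RAB and ARF proteins are small GTPases that switch between a GTP-bound state on membranes and a GDP-bound state, and each marks particular vesicles or organelles. COPII coats form vesicles that leave the endoplasmic reticulum, and COPI coats form vesicles that return from the Golgi. The SEC61 channel admits new proteins to the endoplasmic reticulum. VPS proteins, first found in yeast as vacuolar protein sorting mutants, build the complexes that sort and fuse endosomes and lysosomes, among them retromer, HOPS, CORVET, GARP and ESCRT.

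Of the 63 genes, 13 had a knockout peak alone, 16 had peaks in both lists and 34 had a SiHa peak alone. The 29 members with a knockout peak thus included 13 without a SiHa peak (44.8%, 95% exact binomial interval 26.4 to 64.3%), beside 42.3% of all 2882 named protein-coding genes with a knockout peak. The 50 members with a SiHa peak included 34 without a knockout peak (68%, 53.3 to 80.5%), beside 70.4% of all 5615 named protein-coding genes with a SiHa peak. Both shares lay near those of all genes, so neither count sets the vesicle traffic genes apart. With only as many of the strongest SiHa peaks as the knockout list holds, 21 members had a knockout peak alone, 8 had both and 15 had a SiHa peak alone. The share of knockout genes without a SiHa peak was then 72.4% in members and 65.1% over all, and that of SiHa genes without a knockout peak 65.2% and 63.7%. Of the 6833 named genes with a peak, 42.2% had one in the knockout list and 82.2% one in the SiHa list, which is the background for every family below. Assigned peaks were found in 49.2% of members (40.3 to 58.2%) and in 34.1% of 20050 RefSeq protein-coding genes. That comparison was not tested, and the expression of the genes is not known from these files. All intervals cover counting error only. Those for peaks treat peaks of the same gene as independent, so they may be too narrow where such peaks lie together.

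**Figure D1:**
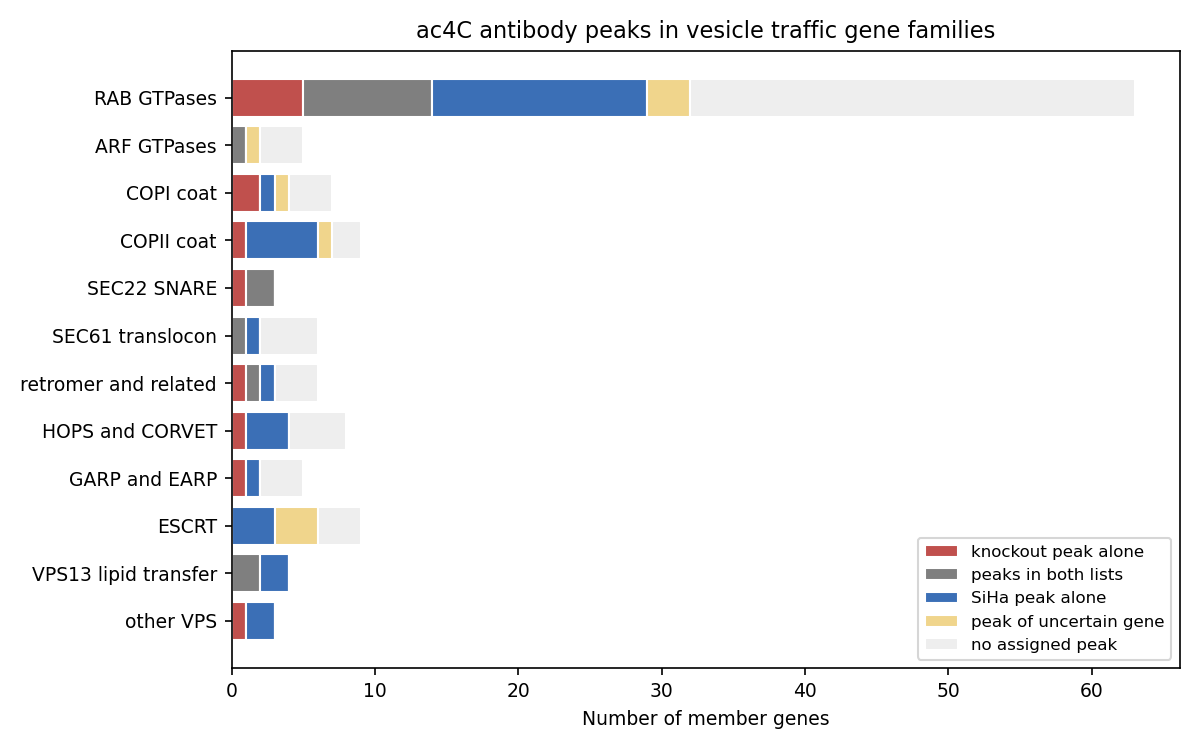
Number of member genes (horizontal axis) in each family, split by the list in which the gene had a peak. RAB GTPases made up 63 of the 128 members. The 3 ESCRT genes with an assigned peak all had a SiHa peak alone, as did 3951 of all 6833 named genes with a peak. The 3 ESCRT genes with a peak of uncertain gene had knockout peaks.

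Peaks of the members resembled those of other genes in the same list. Knockout peaks of members had a median of 180 bases and a median fold enrichment of 12.8, both equal to the medians of 3598 knockout peaks in named protein-coding genes. The fold is the authors' own value, a ratio to a baseline that the files do not name. The interquartile range of the fold was 7.69 to 18.1 in members and 6.84 to 25.6 in all. SiHa peaks of members had a median of 181 bases, as did those of all named protein-coding genes, while the mean was 225 bases in members and 257 in all. There were 1.14 knockout peaks per member with such a peak (1.25 over all genes) and 1.62 SiHa peaks per member (1.85 over all). The median −log10 of the deposited p was 5.6 in knockout peaks of members and 5.55 in those of all, and 6.89 and 6.5 in SiHa peaks. Strengths are not comparable between the lists, since p depends on a depth that is not known. In the knockout list, 10 of the 33 member peaks (30.3%, 15.6 to 48.7%) exceeded a false discovery rate of 0.05 by the authors' values, as did 23% of all. They were the only knockout peaks of RAB2A, RAB36, RAB44, VPS13A, VPS26C, VPS52 and VPS9D1, the weaker peak of RAB24 and 2 of the 3 peaks of VPS13B. At that limit 10 members had a knockout peak alone, 12 had both and 38 had a SiHa peak alone. The share of SiHa genes without a knockout peak was then 76% in members and 75.5% over all genes. That of knockout genes without a SiHa peak was 45.5% and 40%.

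Member peaks lay toward the 3′ end of the gene, at a median of 79.3% of the RefSeq gene span for knockout peaks (77.9% over all named genes) and 90.3% for SiHa peaks (84.7% over all). The middle of the peak, counted over its blocks, fell in the last 10% of the span for 13 of 33 knockout peaks (39.4%, 22.9 to 57.9%, against 33.2% over all named genes) and for 42 of 81 SiHa peaks (51.9%, 40.5 to 63.1%, against 42% over all). The first 10% held 3 knockout peaks (9.09%, against 7.92% over all named genes) and 4 SiHa peaks (4.94%, against 7.24% over all). Spans contain introns, and exons were not used here, so these places do not say whether a peak lies in coding sequence or in an untranslated region. Peaks of more than 1 block skip a stretch of genome as a spliced RNA does. They made up 11 of the 33 knockout peaks (33.3%, against 32.7% over all named genes) and 25 of the 81 SiHa peaks (30.9%, against 25.8% over all).

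In the ARF family a peak could be assigned to ARF6 alone (ENSG00000165527, chromosome 14), which controls endocytosis and actin at the plasma membrane. Its knockout peak ran over 390 bases, 49893909 to 49894298, all inside its SiHa peak of 690 bases, 49893669 to 49894358. For these peaks the deposited p was 0 in either list. ARF3, which acts at the Golgi, lay under an identifier that also fitted FKBP11, so its SiHa peaks (151 and 121 bases, p of 7.6e-05 and 0.0042) are uncertain. No peak was assigned to ARF1, ARF4 or ARF5, the Golgi ARFs that recruit COPI and adaptor coats.

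In the RAB family 5 genes had a knockout peak alone, 9 had peaks in both lists and 15 had a SiHa peak alone. RAB10 and the pair RAB8A and RAB8B carry secretory vesicles to the plasma membrane. RAB10 (ENSG00000084733, chromosome 2) held the one member peak with exactly the same 3 blocks in both lists, 179 bases between 26127249 and 26134984, with a knockout p of 1e-14 and a fold of 1.93, and a SiHa p of 6.3e-35. A second knockout peak had its middle 941 bases after the gene start, with a fold of 66.7 and a p of 3.2e-16, where no SiHa peak was called. The second SiHa peak had its middle 387 bases before the gene end, with a p of 0.00078. The lists thus shared 1 place in RAB10 and differed at the ends of the gene.

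RAB8A and RAB8B each had 1 knockout peak and 3 SiHa peaks. In RAB8B (chromosome 15) the knockout peak, with a fold of 59 and a p of 1.3e-14, lay wholly inside the SiHa peak at 63263689 to 63263928. In RAB8A (chromosome 19) the knockout peak (16132683 to 16132862, fold of 12.5, p of 3.2e-16) lay 208 bases beyond the nearest SiHa peak. In both genes a SiHa peak spanned the RefSeq gene start, with its middle 68 bases after that start in RAB8A (p of 0.00037) and 73 bases after it in RAB8B (p of 1.9e-09), and no knockout peak was called there.

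The start windows of RAB8A and RAB8B are shown because these were the only members, of 50 with a peak and a window, whose SiHa peak reached a window from 250 bases before to 50 bases after a RefSeq start, and that of VPS26C because it was the only such member with a knockout peak there, though a weak one, with a false discovery rate of 0.11. Sequences are from RefSeq on GRCh38.p14, 5′ to 3′ on the gene's strand, and capitals mark the bases inside the peak. The window of RAB8A is chr19:16111639-16111938 on the plus strand, that of RAB8B chr15:63189356-63189655 on the plus strand, and that of VPS26C chr21:37267285-37267584 on the minus strand.
RAB8A, SiHa peak: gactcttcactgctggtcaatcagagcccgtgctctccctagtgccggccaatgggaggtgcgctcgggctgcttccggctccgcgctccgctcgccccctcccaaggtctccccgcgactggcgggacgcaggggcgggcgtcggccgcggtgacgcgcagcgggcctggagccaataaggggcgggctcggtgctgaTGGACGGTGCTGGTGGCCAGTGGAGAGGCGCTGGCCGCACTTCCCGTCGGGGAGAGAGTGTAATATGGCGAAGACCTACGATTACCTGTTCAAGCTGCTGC
RAB8B, SiHa peak: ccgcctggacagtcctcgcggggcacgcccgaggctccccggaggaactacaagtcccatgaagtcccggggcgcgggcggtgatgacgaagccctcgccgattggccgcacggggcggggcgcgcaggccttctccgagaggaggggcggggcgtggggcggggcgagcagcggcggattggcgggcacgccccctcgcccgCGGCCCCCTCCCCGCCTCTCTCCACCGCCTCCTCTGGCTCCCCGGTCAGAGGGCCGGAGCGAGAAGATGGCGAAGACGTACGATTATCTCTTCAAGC
VPS26C, knockout peak: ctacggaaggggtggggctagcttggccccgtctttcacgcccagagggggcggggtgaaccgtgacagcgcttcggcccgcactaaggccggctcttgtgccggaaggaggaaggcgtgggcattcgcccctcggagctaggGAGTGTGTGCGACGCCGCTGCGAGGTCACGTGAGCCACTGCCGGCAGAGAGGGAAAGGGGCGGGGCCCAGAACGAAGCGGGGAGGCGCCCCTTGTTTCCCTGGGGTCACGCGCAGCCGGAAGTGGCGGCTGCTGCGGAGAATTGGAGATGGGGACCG

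The peaks covered 101 bases of the RAB8A window, 97 of the RAB8B window and 157 of the VPS26C window. The longest run of bases shared by the covered stretches of RAB8A and RAB8B was ATGGCGAAGAC, and from its first base 28 of the 31 bases that could be compared were identical. Since ac4C has been linked to cytosines repeated at a fixed spacing, the covered stretches were searched on the gene's strand, overlapping matches counted, for CNNCNNCNNC, 4 cytosines each 3 bases after the one before. RAB8B held 7 such runs, RAB8A 0 and VPS26C 1. The same stretch of all 34943 RefSeq start windows held at least 1 run in 45.5% of cases for the place of the RAB8B peak, and 7 or more in 4.5%. At the place of the RAB8A peak 46.9% held at least 1, and at that of VPS26C 59.5%. GC content was 60.4% in RAB8A, 66% in RAB8B and 69.4% in VPS26C, against medians of 60.4, 60.8 and 60.5% over all windows at the same places. Cytosine content was 23.8% in RAB8A, 40.2% in RAB8B and 25.5% in VPS26C, against medians of 27.7, 27.8 and 28%. A match is a description of letters and does not locate an acetylated base. Start windows were reached by 1 of 25 knockout peaks (4%) and 2 of 69 SiHa peaks (2.9%) of members with a window, and by 2.63% and 2.86% of such peaks over all genes.

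RAB7A, the GTPase of late endosomes and lysosomes (ENSG00000075785, chromosome 3), had the lowest SiHa p among the RAB genes. Its knockout peak (128813722 to 128813901, fold of 71.8, p of 1.6e-17) overlapped the weaker SiHa peak at 128813751 to 128813901 (p of 0.0019) and not the stronger one just upstream at 128813393 to 128813692 (p of 7.9e-100). The knockout peak lay at 98.9% of the gene span from its start, and the SiHa peaks at 98.6 and 98.9%.

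Of the other RAB genes with peaks in both lists, 3 had overlapping peaks. RAB17, a GTPase of epithelial cells that acts in polarised traffic, had a knockout peak with a fold of 53.8 and a p of 4e-13 that shared 121 bases with its SiHa peak (p of 4.2e-06), with both middles within 220 bases of the gene end. RAB18, which acts at the endoplasmic reticulum and lipid droplets, had a knockout peak of 181 bases in 3 blocks, with a fold of 5.86, all inside a SiHa peak of 360 bases in 6 blocks. RAB36, a Golgi-associated RAB, shared 91 bases between a weak knockout peak (fold of 10.3, p of 0.01) and a SiHa peak with a p of 4e-21. The peaks of RAB2A, which acts between the endoplasmic reticulum and the Golgi, were 627 bases apart at the nearest, and those of RAB21, which carries integrins through early endosomes, were 2186 bases apart.

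RAB24, which has been tied to autophagy, had 2 knockout peaks, with folds of 35.9 (p of 9.8e-09) and 10.3 (p of 0.01, false discovery rate of 0.53), and no SiHa peak. RAB27B, a GTPase of secretory granules and exosomes, had a knockout fold of 23.1 (p of 1.1e-05). RAB44, a large RAB of immune cells, had a fold of 15.4 with a false discovery rate of 0.16, so that 4 RAB genes with a knockout peak alone had one within 0.05. RAB5B of early endosomes had a fold of 8.12 (p of 2e-08), and RAB11A of recycling endosomes 3.06 (p of 1.7e-07). The 5 RAB genes with a knockout peak alone therefore came from different steps of the pathway. The RAB5 genes were split over the lists, since RAB5C had 2 SiHa peaks and no knockout peak, and the SiHa peak in RAB5A (p of 3.6e-07) lay under an identifier that also fitted PP2D1.

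Among the 15 RAB genes with a SiHa peak alone, RAB35, a regulator of endocytic recycling, had the lowest p, 2.5e-40, over 328 bases in 2 blocks. RAB32 (p of 7.9e-38), which acts in melanosome and mitochondrial traffic, RAB40A (p of 3.2e-36), a RAB that also joins ubiquitin ligases, and RAB9A (p of 4e-36), which acts from late endosomes to the trans-Golgi, had 1 peak each. RAB29 (p of 7.9e-35), a partner of the kinase LRRK2, and RAB20 (p of 5e-32), which acts on phagosomes, had 2 peaks each. RAB26 had 1 peak of 480 bases (p of 4e-23), and RAB1A, the GTPase of the step between the endoplasmic reticulum and the Golgi, 1 of 210 bases (p of 1.3e-16). RAB3B, a GTPase of regulated exocytosis, had the most peaks of any member, 8 over 1447 bases, with deposited p between 4.1e-06 and 0.027. Of these 8 peaks, 7 lay in the last part of the gene, between 86.3 and 98.8% of its span. Many peaks in RAB3B thus went with weak evidence at each.

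**Figure D2:**
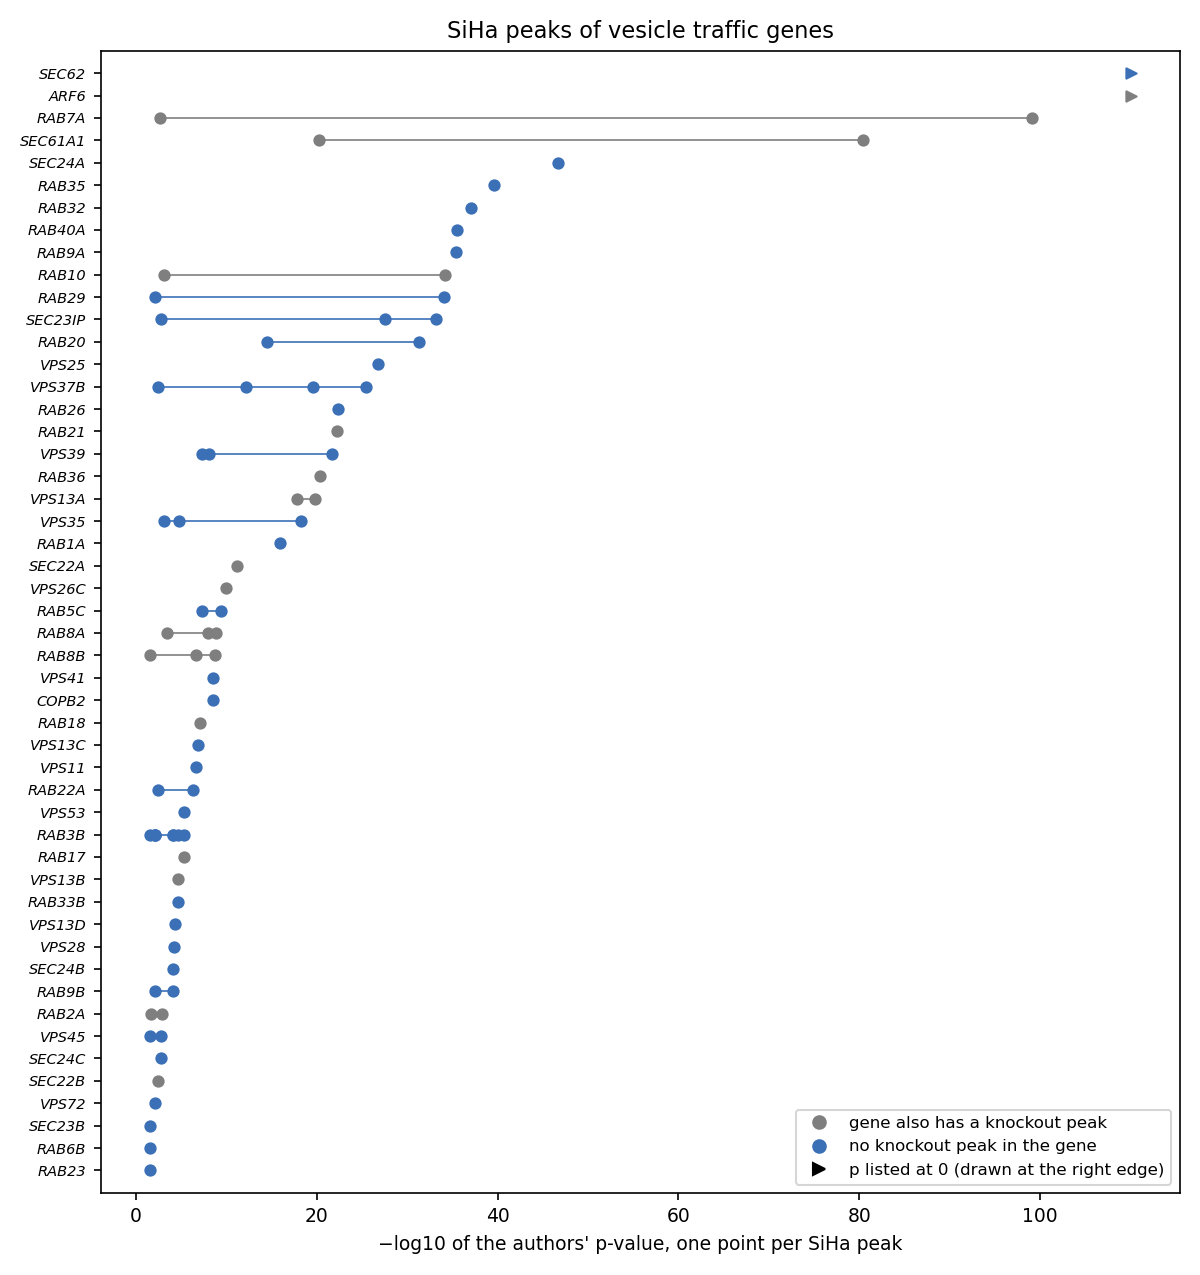
−log10 of the authors' p-value (horizontal axis) for each SiHa peak of the 50 members with one, a row for each gene, coloured by whether the gene also had a knockout peak. ARF6 and SEC62 had p listed at 0, and genes with and without a knockout peak were found at both high and low strengths.

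At the entry to the secretory pathway, SEC61A1 and SEC62 had peaks and SEC61A2, SEC61B, SEC61G and SEC63 had none assigned. SEC61A1, the channel subunit (ENSG00000058262, chromosome 3), had a knockout peak of 150 bases in 2 blocks in the middle of the gene, with a fold of 3.85 and a p of 2.5e-06. Its SiHa peaks at 128070038 to 128070277 (p of 4e-81) and 128070427 to 128070696 (p of 5e-21) lay 9434 bases or more away. SEC62, a partner of the channel (ENSG00000008952), had a SiHa peak of 599 bases in 2 blocks between 169988306 and 169993138 on chromosome 3, with p listed at 0, and no knockout peak.

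In the COPII coat, SEC24D, one of the cargo-binding coat subunits (ENSG00000150961, chromosome 4), had a knockout peak alone, of 181 bases in 2 blocks between 118757732 and 118758478, with a fold of 76.9, the highest among peaks assigned to members, and a p of 7.9e-19. Its paralogues SEC24A, SEC24B and SEC24C each had 1 SiHa peak and no knockout peak, with p of 2e-47, 8.3e-05 and 0.0016. SEC23IP, a binding partner of the coat, had 3 SiHa peaks (lowest p of 6.3e-34), and SEC23B, of the inner coat, had 1 weak SiHa peak (p of 0.027). In SEC31A, of the outer coat, 2 identifiers competed, and SEC23A and SEC31B had no assigned peak. Of the 6 COPII genes with an assigned peak, 1 had it in the knockout list and 5 in the SiHa list, beside 42.2% and 82.2% over all genes.

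In the COPI coat COPA (fold of 3.3, p of 0.0035) and COPZ1 (fold of 17.9, p of 0.00019) had a knockout peak alone, and COPB2 had a SiHa peak alone (p of 2.9e-09). Each of the 3 SEC22 genes, whose proteins include a SNARE of traffic between the endoplasmic reticulum and the Golgi, had a knockout peak. That of SEC22A (fold of 14.7, p of 7.9e-12) met the SiHa peak at 1 base. That of SEC22B (fold of 6.84) shared 31 bases with the SiHa peak. That of SEC22C (fold of 11.1, p of 1e-06) had no SiHa partner. The numbers of genes in these families are too small to set one against another.

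The HOPS, CORVET, retromer, GARP and ESCRT families together had knockout peaks in 4 genes and SiHa peaks in 9, out of 12 with an assigned peak, beside 42.2% and 82.2% over all genes. In HOPS and CORVET, which tether membranes for fusion, VPS33A had a knockout peak alone (fold of 19.2, p of 3.2e-11). VPS39 with 3 SiHa peaks (lowest p of 2e-22), VPS41 (p of 2.8e-09) and VPS11 (p of 2.1e-07) had none in the knockout list. In retromer, which returns receptors from endosomes, VPS29 had a knockout peak alone (fold of 3.7, p of 0.00022) and VPS35, the scaffold, had 3 SiHa peaks alone (lowest p of 5e-19). VPS26C, of the related retriever complex, had peaks in both lists 5774 bases apart, and its knockout peak is the one at the start window shown above (fold of 15.4, p of 0.00072, false discovery rate of 0.11). In the GARP tether VPS52 had a knockout peak alone (fold of 12.8, p of 0.0028) and VPS53 a SiHa peak alone (p of 4.1e-06).

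The ESCRT genes VPS37B, VPS25 and VPS28, whose complexes sort ubiquitinated cargo into multivesicular bodies, had SiHa peaks alone. VPS37B (ENSG00000139722, chromosome 12) had 4, all in the last 10% of the gene span, with p of 6.3e-13, 0.003, 3.2e-26 and 2.5e-20. VPS25 had 1 with a p of 1.6e-27. The peaks that could belong to VPS37A, VPS4A and VPS4B were of uncertain gene and were knockout peaks in each case, so that the absence of knockout peaks from this family rests on the assignment. In the VPS13 family of lipid transfer proteins, VPS13A and VPS13B had peaks in both lists and VPS13C and VPS13D a SiHa peak alone. VPS13B had 3 knockout peaks (folds of 17.9, 7.69 and 10.3) and 1 SiHa peak, with 17866 bases between the nearest. VPS9D1 had a weak knockout peak alone (fold of 7.69, p of 0.038). VPS45, an SM protein of SNARE fusion, and VPS72, which in spite of its name belongs to a chromatin remodelling complex, had SiHa peaks alone.

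**Figure D3:**
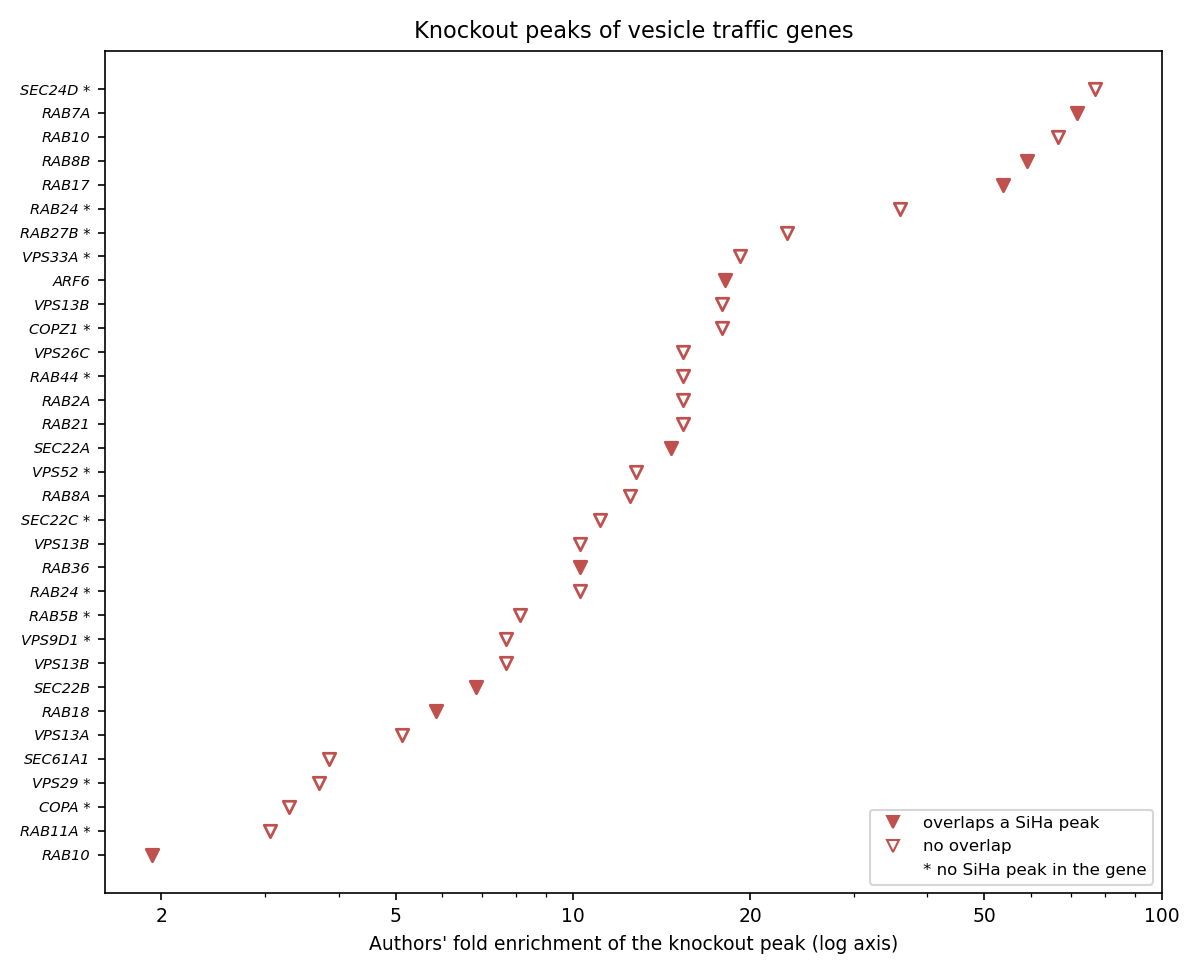
The authors' fold enrichment (horizontal log axis) of each of the 33 knockout peaks of members, with filled symbols where a SiHa peak overlapped and an asterisk where the gene had no SiHa peak. Folds ran between 1.93 in RAB10 and 76.9 in SEC24D, and peaks with and without a SiHa overlap were spread over the range.

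The remaining 13 members with a SiHa peak alone had p between 4.7e-07 and 0.027. They were RAB6B, RAB9B, RAB22A, RAB23, RAB33B, SEC23B, SEC24B, SEC24C, VPS13D, VPS28, VPS45, VPS53 and VPS72.

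Knockout and SiHa peaks overlapped in 9 of the 16 members with both (56.2%, 29.9 to 80.2%), beside 39.4% of the 1664 named genes with both. The 9 were ARF6, RAB7A, RAB8B, RAB10, RAB17, RAB18, RAB36, SEC22A and SEC22B. Of the 33 knockout peaks of members, 9 met a SiHa peak (27.3%, 13.3 to 45.5%), beside 20.5% of the knockout peaks of all named protein-coding genes. Of the 81 SiHa peaks of members, 9 met a knockout peak (11.1%, 5.21 to 20%), beside 7.07% over all. The intervals of the members contain the values of all genes. With the SiHa list cut to the length of the knockout list, 12.1% of the knockout peaks of members and 13% of those of all genes met a SiHa peak, and the order of the shares was reversed. Without the knockout peaks whose pair of p and fold recurs on other peaks, the shares were 50% of 6 member peaks and 33.5% over all. The overlapped knockout peaks had a median −log10 p of 12.4 and the others 3.73, while their median folds were 14.7 and 12.7. For SiHa peaks the 2 medians of −log10 p were close, 7.13 with an overlap and 6.78 without. These are descriptions of 9 and 24 knockout peaks and of 9 and 72 SiHa peaks.

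**Figure D4:**
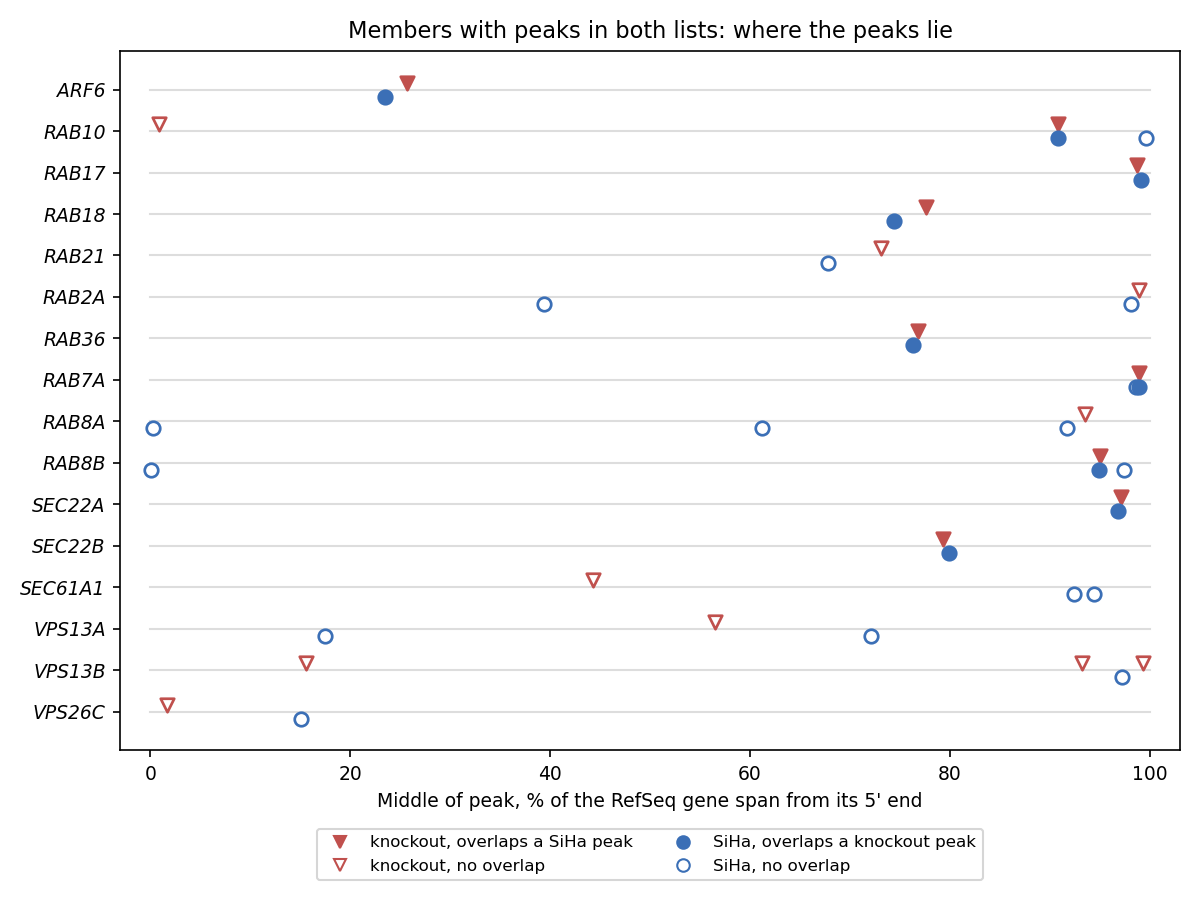
Middle of each peak along the RefSeq gene span (horizontal axis, per cent from the 5′ end) in the 16 members with peaks in both lists, knockout peaks as triangles above SiHa peaks as circles. Symbols are filled where the peaks of the lists overlap, and 7 of the 16 genes have open symbols alone.

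Genes were also ranked by their strongest SiHa peak and divided into 10 classes of rising strength. Without a knockout peak were 10 of 12 members in the lowest 3 classes, 15 of 25 in the middle 4 and 9 of 13 in the highest 3. Over all named genes the shares were 80.9, 70.2 and 60.3%. The median −log10 p of the strongest SiHa peak was 10.6 in the 16 members with a knockout peak and 8.55 in the 34 without, against 16.9 and 8.72 over all genes. No test was made of that difference between members and all genes.

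Among 145 other genes of the pathway, taken from 8 lists, 15 had a knockout peak alone, 22 had peaks in both lists and 40 had a SiHa peak alone. Of the 62 with a SiHa peak, 64.5% had no knockout peak, beside 70.4% over all named genes. Of the 37 with a knockout peak, 15 had no SiHa peak, beside 42.3% over all named genes. The lists below are read against those shares. The ARF regulators had 0 genes with a knockout peak alone, 7 with peaks in both lists, among them the exchange factors ARFGEF1, CYTH1, CYTH2 and IQSEC1, and 4 with a SiHa peak alone, among them CYTH3 and AGAP1. CYTH2 had 2 knockout peaks, the stronger with a fold of 154, and 1 SiHa peak with a p of 1.3e-08, none of them overlapping. The RAB regulators and effectors had 4, 1 and 10 genes in the same order. Both subunits of the enzyme that attaches lipid anchors to RAB proteins had knockout peaks alone. RABGGTA had 2 (highest fold of 37.2, lowest p of 4e-17) and RABGGTB 1 weak peak (fold of 15.4, p of 0.00072). Member peaks with that same p and fold had false discovery rates of 0.16 in RAB44 and 0.11 in VPS26C. The escort protein CHM also had a knockout peak alone (fold of 8.97, p of 0.00066), while CHML of the same list had no assigned peak. GDI2, which extracts RAB proteins from membranes, had 3 SiHa peaks alone, with a lowest p of 2.5e-69.

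Of the COPI and COPII partners SEC13, PREB and TFG had a knockout peak alone, SAR1A, SEC16A and MIA3 peaks in both lists, and COPE a SiHa peak alone. SEC16A, a scaffold of endoplasmic reticulum exit sites, had 1 knockout peak with a fold of 2.39 and 6 SiHa peaks, none overlapping. Clathrin and adaptor genes were divided into 3, 3 and 8, SNAREs and fusion factors into 2, 1 and 8, tethers into 2, 4 and 3, ESCRT partners into 1, 1 and 4, and sorting nexins into 0, 2 and 2, in each case knockout alone, both lists and SiHa alone. The clathrin heavy chain CLTC had 2 knockout peaks and 3 SiHa peaks without an overlap, and the SNARE STX7 had a knockout peak (fold of 56.4) that overlapped its SiHa peak. No list was tested against the other genes.

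As a check of the label, 6 of 11 epithelial and squamous markers had a peak in either list, beside 34.1% of RefSeq protein-coding genes. KRT8 and KRT19 had peaks in both lists, KRT18 a knockout peak alone, and KRT5, KRT13 and EPCAM a SiHa peak alone. The other 5 had no peak or one of uncertain gene. Of markers of other cell types, 1 of 4 leukocyte, 1 of 3 endothelial and 1 of 3 fibroblast genes had a knockout peak alone, and 4 of 4 erythroid and liver genes (HBA1, HBA2, HBB and ALB) had peaks in both lists. Among all the markers the highest knockout folds were those of HBB (1.29e+03) and HBA2 (887). The part of such RNA in the peaks of vesicle traffic genes was not tested. In the knockout list 81.8% of member peaks (64.5 to 93%) carried a pair of p and fold that other peaks of the list also carried, as did 77.1% of those of all named protein-coding genes.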

How the data were processed

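Per the labels, RNA enriched with an ac4C antibody and input RNA of 2 populations were made into stranded mRNA libraries. FastQC 0.11.7 and GRCh38 (hg38) appear in the submitters' processing notes, while for the aligner, peak caller, annotation, pooling of replicates and treatment of near-identical gene copies the tool or rule is not given in the sources used here. What the authors deposited is a p-value for each peak in both lists and, per the file headers, log10 of p, log10 of the false discovery rate (both kept as score values) and a fold enrichment, a ratio, in the knockout list. From 4559 knockout rows 2 off the chromosomes were left out, and from 12928 SiHa rows 1 repeated and 3 off the chromosomes.

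The files hold Ensembl identifiers without names. An identifier took the name of the RefSeq gene whose span held at least 90% of its peak bases, with strand from RefSeq start windows where given (103 of the 128 members), if no other gene or identifier competed. Of 9046 identifiers 7366 (81.4%) were named, 1158 were contested and 522 fitted no span. Overlap was 1 shared base on the same strand. Tested on simulated data, 200 of 200 made pairs were called as made. Among 200 simulated peaks placed inside RefSeq spans, 184 had 1 candidate gene. That candidate had to be the right one, since the same spans were used for naming, so the naming of Ensembl identifiers was not tested. Intervals are 95% Clopper-Pearson (scipy 1.17.1, Python 3.11.15). No test between lists was made. Genes named are all members with a knockout peak, the 20 SiHa-only members with the lowest p, those with 4 or more SiHa peaks, and the ARF genes. Other members were added for completeness. The members and lists were chosen with earlier results of these data known. Alternatives were thresholds, list size, naming and overlap.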

Additional observations from a re-analysis of the deposited data

How the results depend on the processing

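No paired analysis was possible because each population has 1 peak list without replicate values, and for the same reason no replicate could be left out. The counts of genes with a knockout peak alone, in both lists and with a SiHa peak alone were 13, 16 and 34, and they moved with the choice of peaks. Both-list genes with an overlapping pair numbered 9. With p at or below 1e-8 in both lists, 4 genes had a knockout peak alone and 6 had both. The 10 members then with a knockout peak lacked a SiHa peak in 40% of cases, beside 55.6% over all genes. The 29 with a SiHa peak lacked a knockout peak in 79.3%, beside 83.6% over all. With only the strongest 4557 SiHa peaks the counts were 21, 8 and 15, and 12.1% of knockout peaks were overlapped (13% over all genes). The excess of SiHa-only over knockout-only genes was thus not seen with lists of equal length. The same held over all named genes, with 1763 SiHa only and 1876 knockout only. Cutting the SiHa list by itself lowers the number of genes with a SiHa peak, and the cause of the excess was not tested. Without the knockout peaks whose p and fold recur, 2 genes had a knockout peak alone and 4 had both, 50% of the remaining 6 knockout peaks were overlapped (33.5% over all), and 3.7% of SiHa peaks were (2.67% over all). When an overlap was required, SiHa genes without an overlapping knockout peak made up 82% of members and 88.3% of all named genes. These include genes with a knockout peak elsewhere. Over the other settings, the widest gap in the share of SiHa genes without any knockout peak was 79.3% in members against 83.6% over all, at the p limit. For knockout genes without a SiHa peak the widest gap was larger, the 40% against 55.6% at the p limit, and it was not tested. Limiting knockout peaks to a false discovery rate of 0.05 and naming without strand left the counts 13, 16 and 34 within 1.5 times their values. So did the settings added after the data were seen (contested identifiers given to members, and naming from protein-coding spans alone). A 50% reciprocal overlap could not change these counts, which do not use overlap. Under it 18.2% of knockout peaks of members were overlapped (9.17% over all genes) and 7.41% of SiHa peaks (3.17% over all). The depth behind the lists is unknown, so a peak absent from a list does not show that ac4C was absent.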

Other observations

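The same reads may stand under more than 1 identifier in places. In the span of COPB1, a COPI subunit, 2 identifiers each carried a knockout peak starting at 14494360 and 14494364 on chromosome 11, of 179 and 180 bases, both with a fold of 100 and a p of 1.6e-24. In the span of VPS4A, an ATPase that disassembles ESCRT, 2 identifiers carried knockout peaks at 69316071 to 69318663 and 69316229 to 69318655 on chromosome 16, with folds of 4.7 and 4.32. RAB40C lay under an identifier that also fitted a pseudogene span and had 3 SiHa peaks, with p of 0.027, 1.6e-15 and 0.011. SEC31A had 1 knockout peak (fold of 15.4) and 3 SiHa peaks (lowest p of 3.2e-51) under 2 identifiers. None of these peaks enters the counts of genes.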
